A study of Homo sapiens with 3 samples.

Results

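The comparison described here is that of OVCAR3 cells treated with a RAC1 inhibitor and an EZH2 inhibitor together (Combo) against cells treated with the RAC1 inhibitor alone (RAC1i). OVCAR3 is a human line established from a high-grade serous ovarian cancer (HGSOC). RAC1i is 50 μM NSC23766, which blocks activation of the small GTPase RAC1, and Combo is the same agent at the same dose with 5 μM GSK126 (EZH2i), an inhibitor of the methyltransferase EZH2. Both treatments lasted 48 h, and a library of DMSO-treated cells is given beside them as the vehicle control. All kept cells were used, which are cells with over 1000 genes, at most 20% mitochondrial UMIs (unique molecular identifiers, which mark captured mRNA molecules) and a ratio of log10 genes to log10 UMIs over 0.8. They numbered 8239 in Combo and 10215 in RAC1i, so 18454 of the 25985 kept cells of the 3 libraries, DMSO holding 7531. For each library the UMIs of a gene were added up over its kept cells and expressed per 1000000 UMIs of the library (CPM). Of 36601 genes, 7443 had at least 10 CPM in RAC1i or Combo and were compared. Each condition was 1 library with no replicate, so no test of the conditions was possible. Intervals are exact 95% intervals and cover counting error only, not the difference between cultures. Cells given EZH2i without RAC1i were not analysed here.

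EZH2 is the catalytic subunit of Polycomb repressive complex 2 (PRC2), which methylates lysine 27 of histone H3 and keeps developmental genes such as the HOX genes silent. GSK126 competes with the methyl donor of the enzyme, and loss of the mark is known to follow over rounds of cell division. RAC1 is a GTPase that switches on actin assembly at the cell edge and signals to kinases and to NF-kB, a transcription factor of inflammatory genes.

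The kept cells of Combo were somewhat deeper than those of RAC1i. They held 212792113 UMIs in Combo and 234969742 in RAC1i, with medians of 24953 and 20989 UMIs and of 4620 and 4307 genes per cell. The median mitochondrial share was 1.58% in Combo and 1.66% in RAC1i, against a higher share in DMSO, where mitochondrial UMIs made up 6.15% of the total. Ribosomal protein genes took 24.97% and 25.18% of UMIs. Combo and RAC1i shared 21 kept cell barcodes, DMSO and RAC1i 23, and DMSO and Combo 15. Of 11 epithelial markers (EPCAM, keratins, claudins, PAX8 and others) 11 reached 10 CPM in Combo or RAC1i. Of 8 leukocyte and 10 fibroblast or endothelial markers none did, at sums of 8.55 and 8.12 CPM in RAC1i and 8.32 and 8.30 CPM in Combo. CD3D and NKG7 had no UMI in RAC1i or Combo.

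Combo cells had more metallothionein mRNA and less mRNA of inflammatory chemokines and cytokines than RAC1i cells, and most other genes differed little. The promoters of the genes at these 2 ends are shown first. Metallothioneins are short cysteine-rich proteins that bind zinc and copper, and they are encoded in a cluster on chromosome 16. The transcription factor MTF1 switches them on at metal response elements. The following are the 250 bases before the RefSeq start (GRCh38.p14, plus strand) of MT2A at chr16:56608334-56608583, MT1X at chr16:56682220-56682469 and MT1B at chr16:56651636-56651885, with matches to the cores TGCACNC and TGCGCNC on either strand in capitals.
MT2A: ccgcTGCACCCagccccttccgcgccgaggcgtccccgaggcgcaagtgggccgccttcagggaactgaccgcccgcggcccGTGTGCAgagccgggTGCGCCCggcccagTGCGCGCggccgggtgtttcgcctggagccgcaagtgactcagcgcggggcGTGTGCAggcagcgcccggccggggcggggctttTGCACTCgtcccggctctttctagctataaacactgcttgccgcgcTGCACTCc
MT1X: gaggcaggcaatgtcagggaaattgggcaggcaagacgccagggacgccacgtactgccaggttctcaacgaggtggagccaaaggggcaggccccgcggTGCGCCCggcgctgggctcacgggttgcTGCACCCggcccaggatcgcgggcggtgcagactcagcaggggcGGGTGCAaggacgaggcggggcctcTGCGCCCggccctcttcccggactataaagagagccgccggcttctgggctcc
MT1B: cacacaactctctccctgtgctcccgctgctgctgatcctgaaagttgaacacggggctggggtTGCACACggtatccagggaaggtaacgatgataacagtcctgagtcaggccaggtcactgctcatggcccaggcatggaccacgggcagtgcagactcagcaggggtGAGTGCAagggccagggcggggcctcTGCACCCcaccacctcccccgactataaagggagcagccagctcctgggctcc

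The 3 promoters held 7, 4 and 3 matches. The 4 metallothionein promoters in the RefSeq table, which had no entry for MT1G, all held a match. The share was 24.7% of all 27305 promoters and 34.2% of the 6004 promoters of compared genes. Metallothioneins are known to be switched on at these elements, so matches in their promoters were likely beforehand. The cores were about as frequent in promoters of genes at least 1.25-fold higher in Combo (94 of 279, 33.7%) as in those of genes at least 1.25-fold lower (103 of 291, 35.4%). The chemokine and cytokine promoters are shown for a site of NF-kB. The next 3 stretches are the first 190 of the 250 bases before the start of CXCL1 at chr4:73869143-73869332 (plus strand), CXCL2 at chr4:74099256-74099445 (minus strand) and IL6 at chr7:22726950-22727139 (plus strand), in the same build, with matches to GGANTTTCC on either strand in capitals.
CXCL1: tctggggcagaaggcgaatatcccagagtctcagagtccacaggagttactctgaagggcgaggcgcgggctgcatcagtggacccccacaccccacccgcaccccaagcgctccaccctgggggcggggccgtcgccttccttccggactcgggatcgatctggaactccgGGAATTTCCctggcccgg
CXCL2: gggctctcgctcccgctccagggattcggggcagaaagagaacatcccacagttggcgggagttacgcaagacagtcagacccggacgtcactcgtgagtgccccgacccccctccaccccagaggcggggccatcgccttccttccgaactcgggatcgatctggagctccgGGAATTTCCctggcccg
IL6: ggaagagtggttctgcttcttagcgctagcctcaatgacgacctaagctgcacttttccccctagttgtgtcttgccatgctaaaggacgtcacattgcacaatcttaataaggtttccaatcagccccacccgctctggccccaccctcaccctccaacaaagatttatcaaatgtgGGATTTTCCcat

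This form of the site was chosen after these promoters had been read. It was in 1.47% of all promoters and 1.60% of those of compared genes, sets that include the promoters used to choose it. A broader form of the site, with its middle letters free, was in 53.7% of all promoters, 69.6% of those of compared genes, 71.0% of those of genes at least 1.25-fold higher in Combo and 64.6% of those of genes at least 1.25-fold lower. Other motifs were also counted. A sterol response element core (TCACNCCAC) was in 0 of 11 promoters of cholesterol synthesis genes and 0.849% of those of compared genes. For genes at least 1.25-fold higher, at least 1.25-fold lower and all compared, an AP-1 site was in 3.23%, 5.155% and 3.36%. A CCAAT box was in 43.0%, 30.6% and 36.3% in the same order. A match is a run of letters and not evidence of binding in these cells.

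Over the 7443 genes the median log2 ratio of Combo to RAC1i was 0.01, and 5% of genes lay below −0.32 and 5% above 0.32. Of these genes 6718 (90.3%) were within 1.25-fold. At least 1.5-fold higher in Combo were 13 genes, a background of 0.175% of those compared, and 36 genes were at least 1.5-fold lower (0.484%). With TMM scaling the split was 18 higher and 30 lower. The genes nearest the minimum were C2orf42 at 10.01 CPM in the higher library and, left out, CPOX at 9.991. Genes near the minimum could enter only through the library where they were higher, and the counts in gene lists below include such genes. For example, DHCR7 entered through Combo alone, and DUSP6, NRG1 and OVGP1 through RAC1i alone. The direction of all 49 genes was the same in every other setting tried on the counts, and 22 stayed past 1.5-fold in each of them.

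**Figure D1:**
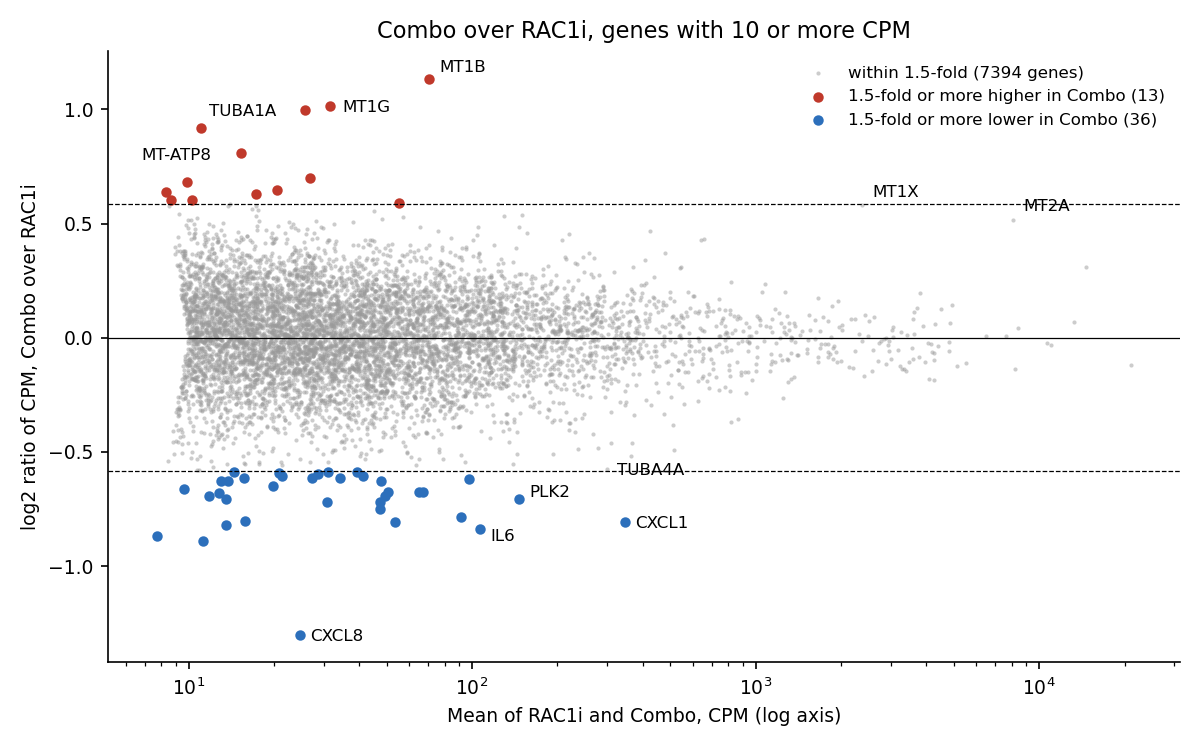
Each point is 1 of 7443 genes, with the mean CPM of RAC1i and Combo on a log axis and the log2 ratio of Combo to RAC1i on the vertical axis; dashed lines mark 1.5-fold. MT1B (1.13) is highest and CXCL8 (−1.30) lowest, and among abundant genes MT2A and MT1X lie above 0 and CXCL1 below it.

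The list of metallothioneins, with zinc transporters, summed to 782 CPM in DMSO, 9692 in RAC1i and 13624 in Combo, with MT1B not a member of the list or of this sum. MT2A was at 135 CPM in DMSO, 6652 in RAC1i and 9518 in Combo. Combo was highest and DMSO far below both, and the ratio of Combo to RAC1i was 1.43 (1.43–1.43). MT1X was at 57.5, 1904 and 2850 CPM in the same order, a ratio of 1.496 (1.491–1.502), next to the limit of 1.5-fold. MT1F was at 24.7, 356 and 493 CPM, with a ratio of 1.38. All 3 genes had the same order of libraries.

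In DMSO, RAC1i and Combo MT1B was at 0.015, 44.1 and 96.9 CPM, almost without UMIs in the vehicle control and 2.20-fold (2.14–2.25) higher in Combo than in RAC1i. MT1G followed the same pattern, with 0.025, 20.8 and 42.1 CPM and a ratio of 2.02 (1.95–2.10). Among the genes compared, these 2 were the only ones at least 2-fold higher. Metallothionein genes are close copies of each other, so the split of reads between them is uncertain and their sum is the safer measure. With each cell thinned to 5000 UMIs, which left out 806 DMSO, 1015 RAC1i and 885 Combo cells, a median DMSO cell held 1 UMI of the summed MT1 and MT2A genes, a median RAC1i cell 33 and a median Combo cell 50. The 90th percentile was 3, 134 and 211 UMIs, and the 10th was 0, 3 and 6. The median and both of these percentiles were higher in Combo than in RAC1i, and the 5% of cells with most of these UMIs held 23.3% of them in both treated libraries.

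MTF1, the factor itself, was at 20.8, 47.1 and 40.7 CPM in DMSO, RAC1i and Combo, and SLC30A1, the zinc exporter that MTF1 is known to drive, at 16.2, 145 and 140 CPM. SLC39A8, a zinc and manganese importer, was at 45.5, 31.3 and 22.8 CPM, a log2 ratio of −0.46, and the zinc transporters SLC39A9 and SLC30A7 were at −0.33 and −0.32. Of the 18 members compared in a list of metallothioneins and zinc transporters, 4 were at least 1.25-fold higher, all of them metallothioneins (MT1G, MT1X, MT2A and MT1F), and 3 at least 1.25-fold lower (SLC39A8, SLC39A9 and SLC30A7, the last 2 named after their values were seen). These are 22.2% and 16.7% of the compared members, against backgrounds of 4.66% and 5.08% of all genes. The median of the list was −0.02.

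Chemokines and cytokines were lower in Combo than in RAC1i. Of 50 genes in the list 13 could be compared, and 13 of these 13 had a log2 ratio under 0, with a median of −0.34 against 0.01 over all genes. At least 1.5-fold lower were 6 (CXCL8, IL6, CXCL1, CXCL2, TNF and CXCL3), where the background is 0.484%, and 0 were 1.5-fold higher. CXCL2 and CXCL3 did not stay past 1.5-fold in every other setting, where their smallest falls were −0.491 and −0.390.

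CXCL8 attracts neutrophils. Its level was 3.40 CPM in DMSO, 35.1 in RAC1i and 14.3 in Combo. Among the genes compared it was the only one at least 2-fold lower, at a ratio of 0.406 (0.389–0.423). CXCL1, a ligand of the same receptor family, was the most abundant of the 6 past 1.5-fold, with 44.5, 439 and 251.0 CPM and a ratio of 0.572 (0.566–0.578). For both, Combo lay between DMSO and RAC1i. CXCL2 was at 6.43, 20.1 and 11.5 CPM and CXCL3 at 4.34, 25.1 and 16.6 CPM. These 3 CXCL genes are similar in sequence and reads may be shared between them.

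IL6, a cytokine of the acute phase, was at 2.78 CPM in DMSO, 137 in RAC1i and 76.8 in Combo, a ratio of 0.560 (0.550–0.571). TNF, which itself activates NF-kB, was at 1.98, 82.4 and 51.6 CPM, a ratio of 0.627 (0.612–0.641). Both were again highest in RAC1i and lowest in DMSO. The smallest differences of the list were those of the protease inhibitor SLPI (1293, 1358 and 1297 CPM) and of CXCL16, at a log2 ratio of −0.07 each.

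The share of cells with a UMI followed the level. Thinned to 5000 UMIs, 57.7% of RAC1i cells (56.7–58.7%) and 44.8% of Combo cells (43.7–46.0%) had a CXCL1 UMI, against 10.3% in DMSO. For IL6 the shares were 38.5% (37.5–39.5%) in RAC1i and 27.4% (26.4–28.4%) in Combo, and for CXCL8 6.95% (6.43–7.48%) and 3.73% (3.31–4.18%). In DMSO they were 0.863% and 0.833%. Before thinning the cells used had median depths of 23014 UMIs in RAC1i and 27471.5 in Combo. Every cell is of the same line, so the UMIs that free RNA adds could not be read from cells without these genes, and their part was not tested. CXCL8 UMIs were concentrated, with 89.2% of them in 5% of RAC1i cells, while the same share of cells held 34.9% of CXCL1 UMIs.

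**Figure D2:**
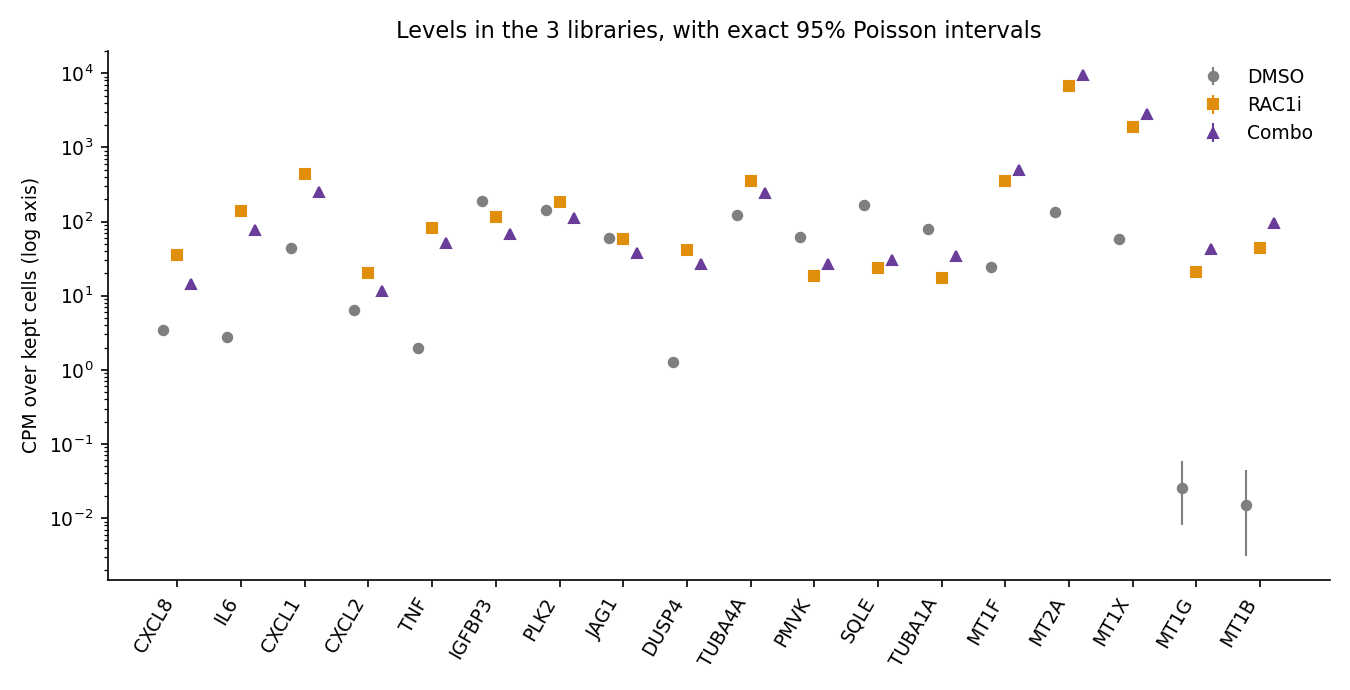
CPM of named genes (log axis) in DMSO (circles), RAC1i (squares) and Combo (triangles), with exact 95% Poisson intervals, which are mostly smaller than the symbols. Chemokines and cytokines have Combo between DMSO and RAC1i, the metallothioneins have Combo highest, and PMVK and SQLE have Combo slightly above RAC1i and far below DMSO.

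Other NF-kB genes were closer to the median of all genes. The list of pathway and feedback genes had a median of −0.03 over 21 genes, a value that crossed 0 in other settings, with 5 of 21 at least 1.25-fold lower (5.08% of all genes) and 0 higher (4.66%). The 5 were TNFAIP3, a brake on the pathway (3.79, 71.9 and 50.0 CPM), the adhesion molecule ICAM1 (−0.51), the subunit NFKB1 (−0.49), IER3 (−0.46) and the nuclear cofactor NFKBIZ (−0.42). NFKBIA, the inhibitor that holds NF-kB in the cytoplasm, was at 109 CPM in DMSO, 1042 in RAC1i and 982 in Combo. REL was slightly higher in Combo, at 0.23.

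Feedback genes of the ERK kinase pathway were mostly lower in Combo. The list had a median of −0.23 over 16 compared genes, with 14 under 0 and 6 at least 1.25-fold lower (37.5%, against 5.08% of all genes). The phosphatase DUSP4 was at 1.27 CPM in DMSO, 41.3 in RAC1i and 26.99 in Combo, a ratio of 0.653 (0.632–0.675). DUSP6 was at 3.71, 11.9 and 8.94 CPM, and the receptor inhibitors SPRY1, SPRY4 and SPRY2 had log2 ratios of −0.44, −0.41 and −0.33. DUSP14 was the exception with the largest value above 0, at 0.18.

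Of 20 compared growth factors, their receptors and binding proteins, 8 were at least 1.25-fold lower (5.08% of all genes), 0 were higher (4.66%) and the median was −0.22. IGFBP3, which binds insulin-like growth factors, was at 190.1 CPM in DMSO, 115 in RAC1i and 66.9 in Combo. Combo was lowest and DMSO highest, unlike the order of the chemokines. Its ratio was 0.581 (0.569–0.593). The ERBB ligand NRG1 was at 8.11, 11.8 and 7.48 CPM, and the receptor EPHA2 and its ligand EFNA1 had log2 ratios of −0.52 and −0.42. The Notch ligand JAG1 was at 60.4 CPM in DMSO and 58.2 in RAC1i but 37.6 in Combo, a ratio of 0.646 (0.629–0.665).

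PLK2, a kinase of centriole duplication and a target of p53, was at 144 CPM in DMSO, 182 in RAC1i and 111 in Combo, a ratio of 0.613 (0.604–0.623). As for JAG1 and IGFBP3, Combo was below both other libraries. Over 15 compared p53 targets and GADD45 genes the median was −0.08. Of these 2 were at least 1.25-fold higher (13.3%, against 4.66% of all genes) and 2 lower (13.3%, against 5.08%). PLK2 was the lowest of them and BAX the highest, at 0.37. The secreted matrix proteases ADAMTS5 and ADAMTS1 were also below RAC1i, with ADAMTS5 at 7.95, 68.0 and 38.9 CPM and ADAMTS1 at 30.7, 61.9 and 38.8 CPM. A list of secreted and proteolytic genes was centred near 0, with a median of −0.06 over 13 genes, 5 of them above 0, and 1 (ADAMTS1) at least 1.25-fold lower (7.69%, against 5.08% of all genes). THBS1, a matrix protein that inhibits vessel growth, was at 4.62, 38.3 and 23.2 CPM. The remaining genes at least 1.5-fold lower included the receptor S1PR1, the peptide hormones EDN2 and PTHLH, the elongation factor ELL2, the claudins CLDN16 and CLDN1, the AP-1 subunit FOSL2, the arrestin-like ARRDC3 and the enzymes BCAT1 and GPD2, with log2 ratios from −0.82 for S1PR1 to −0.59 for GPD2.

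Actin, SRF and YAP targets were slightly lower in Combo. Of 26 compared genes 24 had a log2 ratio under 0 and the median was −0.21, with none past 1.5-fold and 6 at least 1.25-fold lower (23.1%, against 5.08% of all genes). ANKRD1, a target of YAP, was at 4.06 CPM in DMSO, 166 in RAC1i and 113 in Combo (−0.55), and YAP1 itself at 21.3, 42.8 and 32.3 CPM (−0.40). The cytoskeletal actin ACTG1 was at −0.26 and ACTB at −0.17. RAC1 was nearly equal, with 462, 590 and 577 CPM, and over 22 genes of its GTPase pathway the median was −0.04, from RND3 at −0.46 to RHOC at 0.24, with 4 at least 1.25-fold lower (18.2%, against 5.08% of all genes) and 0 higher.

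The targets of EZH2 itself were examined with a list of genes known to be silenced by PRC2 in other cells. Of its 52 members 19 had 10 CPM or more. None of these 19 was at least 1.5-fold higher in Combo, against 0.175% of all genes. At least 1.25-fold higher was 1 (FBXO32, 12.4, 10.5 and 13.4 CPM) and at least 1.25-fold lower were 5, with a median of −0.20. These are 5.26% and 26.3% of the compared members, against 4.66% and 5.08% of all genes. Those that were lower were IGFBP3, WNT5A, SOX9, PTGER4 and GATA2. GATA2, a transcription factor, was at 9.23, 251 and 194 CPM in DMSO, RAC1i and Combo. The cell cycle inhibitor CDKN2A, a classical Polycomb target, was at 616, 600 and 586 CPM. The members that did not reach 10 CPM were not compared, so rises and falls below that level are not covered by these counts.

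Of 39 HOX genes 14 were compared, with 6 above 0, 0 at least 1.25-fold higher (4.66% of all genes), 4 at least 1.25-fold lower (HOXC13, HOXA2 and HOXC10 among them, against 5.08%) and a median of −0.21. HOXC13 was at 2.98 CPM in DMSO, 76.7 in RAC1i and 53.1 in Combo (−0.53). HOXB7 was the highest, at 0.26. Over 14 genes of PRC2 and of H3K27 methylation the median was −0.06, with none past 1.25-fold (90.3% of all genes were within it). EZH2 was at 32.1, 12.4 and 15.2 CPM, a ratio of 1.22 (1.16–1.28), SUZ12 at 74.4, 59.1 and 58.0, and EED at 15.3, 14.4 and 14.2. The level of the mRNA does not measure the activity of the enzyme or the histone mark.

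Genes of cholesterol synthesis had more mRNA in Combo than in RAC1i. Of 16 compared genes 15 had a log2 ratio above 0, 6 were at least 1.25-fold higher (37.5%, against 4.66% of all genes), none was past 1.5-fold, and the median was 0.28 against 0.01 over all genes. PMVK, which adds the second phosphate to mevalonate, was at 62.5 CPM in DMSO, 18.6 in RAC1i and 26.5 in Combo (0.51). DHCR7, which makes cholesterol in the last step of one branch, was at 39.0, 8.67 and 12.3 CPM (0.50). It passed the minimum for comparison in Combo but not in RAC1i. Squalene epoxidase, SQLE, was at 166, 23.3 and 29.9 CPM (0.36). In each case RAC1i was lowest and Combo remained well below DMSO.

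SC5D, a desaturase of the pathway, was nearly equal in Combo and RAC1i (−0.01). Among the 7 compared genes of sterol sensing and uptake the median was 0.22, and SREBF2, the factor that drives the synthesis genes, was at 31.4, 12.2 and 14.7 CPM. MYLIP, a ubiquitin ligase that limits uptake of cholesterol, was lower, at −0.32. Summed over the list of synthesis genes the level was 2218 CPM in DMSO, 582 in RAC1i and 691 in Combo, a ratio of 1.19 (1.18–1.20).

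**Figure D3:**
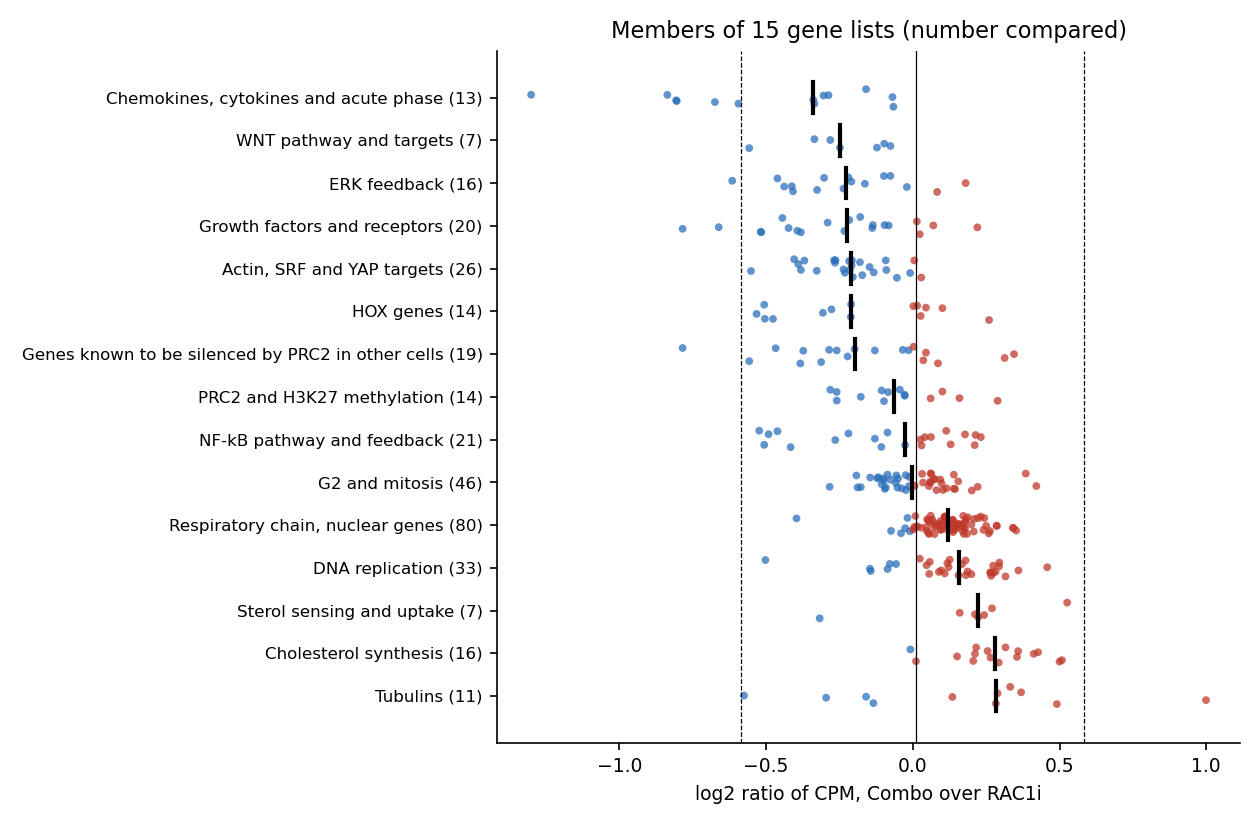
Members of 15 gene lists by their log2 ratio of Combo to RAC1i, with 1 point for each compared gene, the number compared in brackets, black bars at the median of each list, a thin line at the median of all genes (0.01) and dashed lines at 1.5-fold. Chemokines and cytokines lie lowest (median −0.34), and cholesterol synthesis (0.28) and tubulins (0.28) highest, the tubulins widely spread.

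Tubulins, the subunits of microtubules, differed in both directions. TUBA1A was at 79.3 CPM in DMSO, 17.2 in RAC1i and 34.3 in Combo, a ratio of 1.998 (1.92–2.08), with Combo between RAC1i and DMSO. Thinned, 7.55% of RAC1i cells (7.02–8.11%), 13.1% of Combo cells (12.3–13.9%) and 28.9% of DMSO cells had a UMI of it. TUBA4A showed the opposite order, with 124 CPM in DMSO, 357 in RAC1i and 240 in Combo (−0.57). TUBB2A was at 5.16, 10.2 and 14.3 CPM (0.49) and TUBB at 671, 380 and 310.0 CPM (−0.29). Of 11 tubulins 4 were at least 1.25-fold higher (36.4%, against 4.66% of all genes) and 1 lower (9.09%, against 5.08%). Their median was 0.28, and in other settings it ran from −0.15 to 0.29, so the list as a whole had no fixed direction.

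The other genes at least 1.5-fold higher in Combo were mixed in function. ARRDC4, an arrestin-like protein of glucose uptake, was at 1.10 CPM in DMSO, 20.5 in RAC1i and 33.2 in Combo, a ratio of 1.62 (1.56–1.68). Its relative TXNIP, which restrains glucose uptake, was at 46.8, 547 and 736 CPM (0.43). MT-ATP8, a subunit of ATP synthase encoded in the mitochondrial genome, was at 39.8, 11.2 and 19.5 CPM (0.81), although it overlaps MT-ATP6 (8372, 1962 and 1879 CPM, −0.06), so their reads cannot be cleanly told apart. The 13 mitochondrial mRNAs had a median of −0.04, which ran from −0.06 to 0.09 in other settings. Of these 3 were at least 1.25-fold higher (23.1%, against 4.66% of all genes), MT-ATP8, MT-ND4L (0.47) and MT-ND5 (0.35), and 0 were lower. SIGIRR, a brake on interleukin receptors, was at 38.9, 16 and 25.03 CPM, HDAC5, a histone deacetylase, at 12.3, 6.55 and 10.2 CPM, and B3GAT3, an enzyme of glycosaminoglycan synthesis, at 63.9, 44.2 and 66.5 CPM. The last 3 were lowest in RAC1i. TMEM191B, GPATCH11, PARD6A, CARMIL2 and TPGS1 completed the 13, with log2 ratios from 0.60 to 0.92.

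Genes of G2 and mitosis were centred near the median of all genes. Over 46 compared genes the median was 0.00, and it ran from −0.145 to 0.012 in other settings. Of these genes 2 were at least 1.25-fold higher (4.35%, against 4.66% of all genes) and 0 lower. A median thinned cell held 17 UMIs of these genes in both RAC1i and Combo. DNA replication genes had a median of 0.16 over 33 genes, with 27 above 0, 2 at least 1.25-fold higher (6.06%, against 4.66%) and 1 lower (3.03%, against 5.08%), led by the clamp loader RFC4 (53.7, 23.4 and 32.1 CPM, 0.46). RRM2, a subunit of ribonucleotide reductase, went the other way, with 109, 89.6 and 63.3 CPM (−0.50). Genes of the respiratory chain encoded in the nucleus had a median of 0.12 over 80 genes, with 74 above 0 and 6 below. Of these 3 were at least 1.25-fold higher (3.75%, against 4.66%) and 1 lower (1.25%, against 5.08%).

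Of 22 stem cell and ALDH genes 7 were compared, and the others lay under the minimum. None of the 7 was past 1.25-fold, where 90.3% of all genes were also within it, and the median was 0.01. Of 14 genes of the Fallopian secretory and serous lineage 4 were at least 1.25-fold lower (28.6%, against 5.08% of all genes), 0 were higher and the median was −0.13. Of these genes 11 had a log2 ratio under 0 and 3 above it, with CLU highest at 0.23. Summed over this list the level was nearly unchanged, at a ratio of 0.9975 (0.9938–1.001). SOX2, a factor of stem cells, was at 76.8 CPM in DMSO, 18.3 in RAC1i and 15.1 in Combo. CD24, a surface glycoprotein, was at 438, 231 and 209 CPM, and PAX8, which marks the Müllerian lineage of these tumours, at 355, 54.3 and 47.8 CPM. In these 3 the distance between Combo and RAC1i was small beside that from DMSO. OVGP1, an oviductal glycoprotein, was at 0.141, 10.6 and 7.74 CPM (−0.46). KLF5, an epithelial transcription factor, was at 56.3, 112 and 76.7 CPM (−0.54), and ID2, an inhibitor of differentiation factors, at 73.8, 601 and 427 CPM (−0.49). SIRT7, a deacetylase of the nucleolus, was at 43.4, 203 and 221 CPM (0.12). Interferon-stimulated genes had a median of −0.04 over 12 genes, a value that crossed 0 in other settings, with 1 at least 1.25-fold higher (8.33%, against 4.66%; ISG15, 0.38) and 0 lower. Those of MHC class I presentation had a median of 0.12 over 9 genes, with none past 1.25-fold (90.3% of all genes were within it).

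Since the cells of Combo were deeper, the ratio was also taken within 4 bins of UMIs per cell, which end at 10000, 20000 and 40000 UMIs with the last open. The direction was the same in all 4 bins for 48 of the 49 genes past 1.5-fold. PARD6A was the exception, with −0.11 in the shallowest bin. CXCL1 had log2 ratios of −0.72, −0.71, −0.61 and −1.07 from the shallowest to the deepest bin, IL6 −0.75, −0.74, −0.72 and −1.04, and IGFBP3 −0.62, −0.60, −0.75 and −0.89. MT2A had 0.62, 0.87, 0.64 and 0.41. In the same order CXCL2 had −0.460, −0.537, −0.415 and −1.499, and CXCL3 −0.232, −0.332, −0.350 and −1.036. These genes were past 1.5-fold in the deepest bin only. CXCL1, CXCL2, CXCL3, IL6 and IGFBP3 thus differed most in the deepest cells, and MT2A least.

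**Figure D4:**
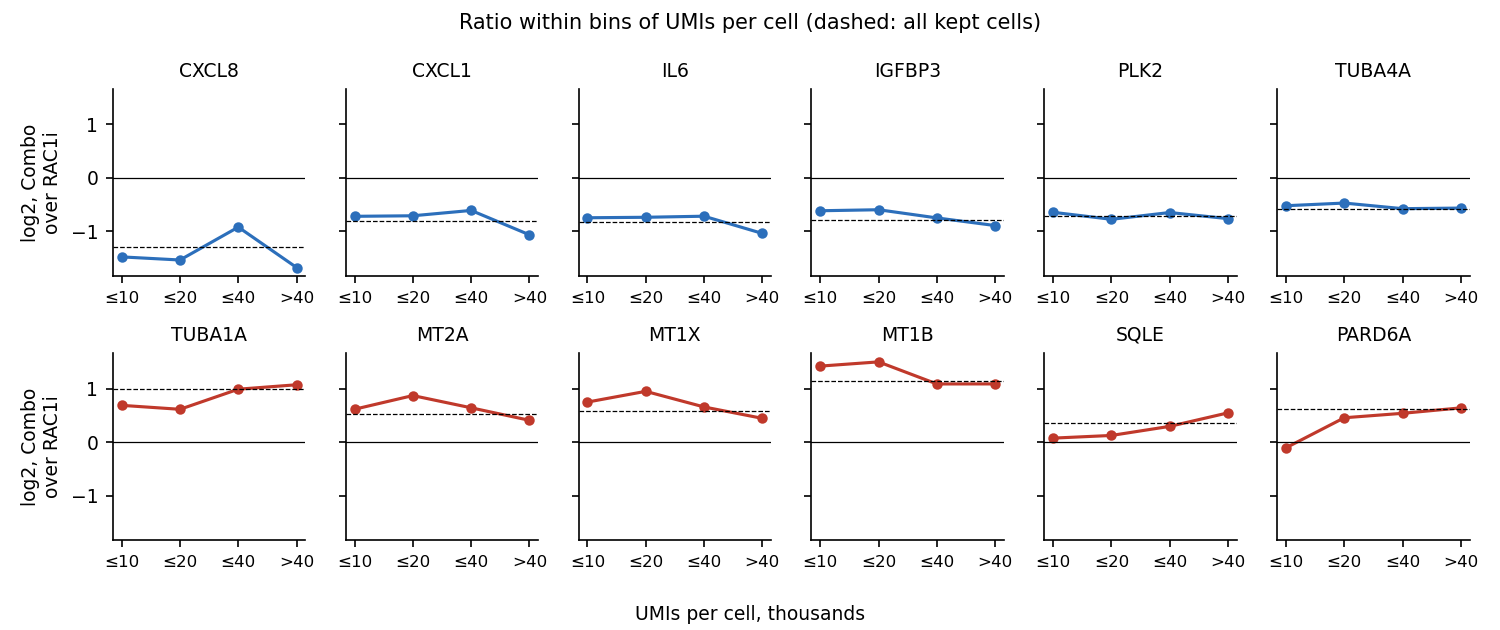
Log2 ratio of Combo to RAC1i within bins of UMIs per cell for named genes, with a dashed line at the ratio over all kept cells. PARD6A crosses 0 in the shallowest bin (−0.11), and the other genes keep their side of 0.

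The genes that differed also differed in transcript length and GC content, which the choice of genes did not use. In GENCODE 44, which held 7433 of the 7443 identifiers, the median length of the canonical transcript was 1890 bases for genes at least 1.25-fold higher in Combo, 4665 bases for genes at least 1.25-fold lower and 3137 bases for all. The median GC was 57.0%, 45.0% and 46.7%. In the quintile of genes with the shortest transcripts (up to 1595 bases) 9.08% were at least 1.25-fold higher and 2.82% lower, and in the quintile with the longest (from 5727 bases) 1.75% were higher and 8.61% lower. The median log2 ratio went from 0.10 to −0.08. In the quintile with the highest GC (57.0% and above) 11.4% were higher and 1.55% lower. Of 216 long noncoding RNAs 27 (12.5%) were at least 1.25-fold lower and 2 (0.926%) higher, against 5.08% and 4.66% of all genes.

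The metallothioneins have short transcripts (393 bases for MT1B, 401 for MT2A), as does CXCL1 (1174), which was lower. The nuclear RNA MALAT1 was at 25028 CPM in DMSO, 13061 in RAC1i and 16183 in Combo (0.31), and NEAT1 at 9741, 3004 and 2773 CPM (−0.12). The part of transcript length, GC and these RNAs in the differences was not tested.

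**Figure D5:**
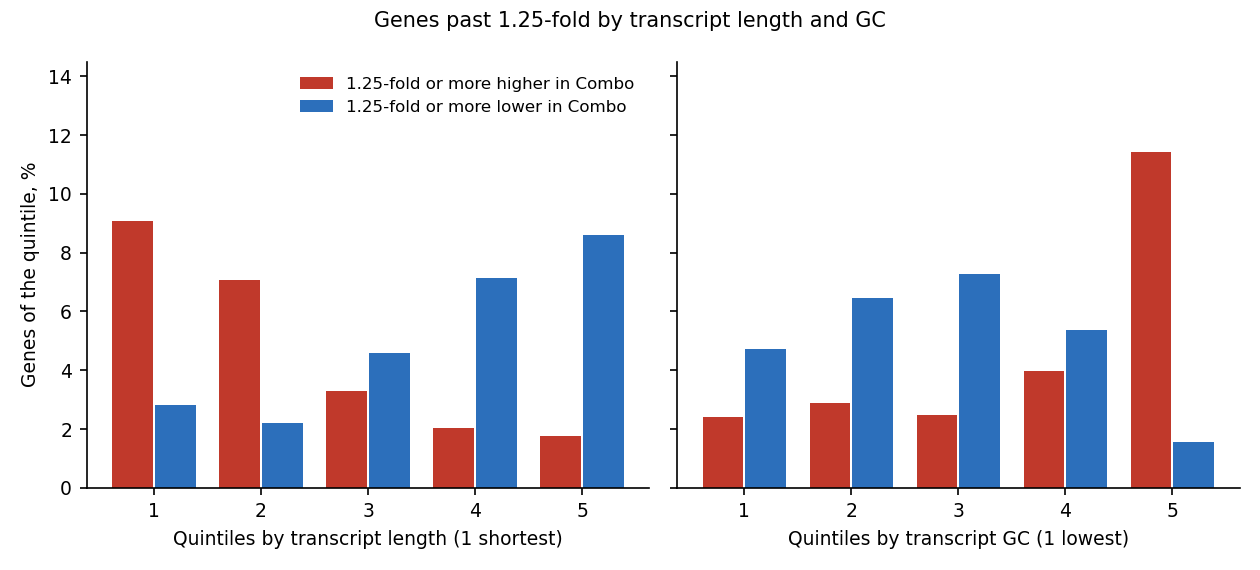
Share of compared genes (%) at least 1.25-fold higher (red) or lower (blue) in Combo than in RAC1i, in quintiles by length of the canonical transcript and by its GC content. Higher genes make up 9.08% of the shortest quintile and 1.75% of the longest, and 11.4% of the quintile with the highest GC.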

How the data were processed

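Single-cell RNA-seq of OVCAR3 was used for DMSO, RAC1i and Combo, with 1 library each. The values deposited by the authors are counts, whole UMIs for each gene in each barcode, not normalized, made with Cell Ranger 4.0.0 on GRCh38, per the labels and the paper's methods. What follows was computed from them. Cells were kept by the limits that the methods give. Gene sums over kept cells were divided by the total and multiplied by 1000000. Ratios have exact conditional, levels exact Poisson and shares exact Clopper-Pearson intervals. The ratio step was checked on simulated data. Doublets were not removed; an alternative left out the 8% of cells with most UMIs. edgeR 4.0.16 (TMM) and DESeq2 1.42.0 gave scaling factors only, since 1 library per group allows no test. Genes were placed with GENCODE 44 and promoters came from RefSeq.

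Named genes were, by rule, the 15 largest log2 ratios in each direction with 50 CPM or more, the 5 largest differences in CPM in each direction past 1.5-fold, the extremes of each of 61 lists, RAC1, EZH2 and genes the study names. Other genes named, such as TXNIP, NEAT1, further list members and genes under 10 CPM, were chosen after their values were seen. The comparison, lists and rule were chosen with earlier results of these data known, and the 1.25-fold limit after seeing the data. Some of the genes that the rule names are not reported here.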

Additional observations from a re-analysis of the deposited data

How the results depend on the processing

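No library had a replicate, so a change in culture, handling or capture and the addition of EZH2i cannot be told apart, and the intervals cover counting error only. No paired analysis was possible because the labels give no replicate numbers and each group is 1 library. The median over all genes stayed between −0.02 and 0.02, and the counts of higher and lower genes stayed within 1.5 times of 13 and 36 under a mitochondrial limit of 10%, all deposited barcodes, DESeq2 size factors, totals without mitochondrial genes, the mean over cells, cells between 10000 and 40000 UMIs and leaving out the deepest 8% of cells. With TMM they were 18 and 30. Thinned to 5000 UMIs they were 25 and 34. A minimum of 50 CPM gave 2 higher and 13 lower, and no minimum gave 2323 and 3104, where counting noise of genes with few UMIs enters. A fold of 2 gave 2 and 1, and a fold of 1.25, added after seeing the data, 347 and 378. Genes with 1 to 10 CPM, also added after seeing the data, gave 101 and 133. No gene past 1.5-fold changed direction in these settings. Among 55 lists with 3 or more compared genes, the medians of 37 kept their side of 0 and those of 18, among them the NF-kB, zinc, mitosis and tubulin lists, crossed it.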

Other observations

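Below the minimum, 5973 genes had 1 to 10 CPM in the higher of RAC1i and Combo. Of these 101 (1.69%) were at least 1.5-fold higher and 133 (2.23%) at least 1.5-fold lower in Combo, and the median log2 ratio was 0.02. INSIG1, which holds back the sterol sensor and is itself induced when sterols are low, was at 26.4 CPM in DMSO, 2.76 in RAC1i and 5.78 in Combo, a ratio of 2.09 (1.90–2.30). The metallothioneins MT1M and MT1H were at 4.96 and 2.59 CPM in RAC1i and 9.88 and 4.90 CPM in Combo. MT1H had no UMI in DMSO. DHRS2, a reductase, was at 1.17, 2.87 and 6.79 CPM in DMSO, RAC1i and Combo (1.24), and G0S2, an inhibitor of fat breakdown, at 0.372, 3.17 and 6.37 CPM.

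On the lower side EDN1, which constricts vessels, was at 0.558 CPM in DMSO, 8.56 in RAC1i and 4.02 in Combo (−1.09), and the matrix protease TLL1 at 0.141, 8.05 and 3.76 CPM. The nicotinamide methyltransferase NNMT was at 0.347, 1.54 and 0.672 CPM, and the transcription factor ZEB2, which drives mesenchymal change, at 0.231, 1.51 and 0.705 CPM. The chemokine CCL20 was at 1.01, 8.59 and 5.32 CPM (−0.69). Chemokines under 10 CPM did not all fall, with CX3CL1 at 3.87, 6.13 and 6.57 CPM, a ratio of 1.07 (0.995–1.155).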
